A study of Mus musculus with 6 samples.

Results

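The genes described here carry out DNA replication and the S phase of the cell cycle, and they were followed in lenses of newborn mice. Of 39 genes listed by function, 37 had a probe set assigned to that gene alone, out of 12393 genes measured, and where a gene had several such probe sets, the one with the highest mean over the 6 arrays stood for it. Gins2 and Chaf1a were not analysed here. The list was made by function, but with earlier results of these data known.

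RNA came from 3 lens samples of Le-AP-2alpha conditional mutants and 3 of wild-type littermates, all dissected at birth, with 1 array per sample. The targeted gene is Tfap2a (Tcfap2a in the labels), which encodes the transcription factor AP-2alpha. As background, the Le name belongs to a Cre line driven by Pax6 regulatory sequence, which acts in the ectoderm that forms the lens and the surface of the eye. The labels give neither the deleted part of the gene nor whether littermates carried Cre or an unrecombined allele, and they do not say whether a sample was 1 animal or a pool, so each p-value reflects only how these samples spread, which may be technical. Levels are log2 of the deposited intensity, differences are mutant minus wild type on that scale, and values in single arrays are listed in the order of replicates 1, 2 and 3.

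Before a cell copies its DNA, the origin recognition complex, Cdc6 and Cdt1 load the Mcm2-7 helicase onto origins, a step called licensing. The kinases Cdc7 and cyclin E-Cdk2 then fire the origins, and Cdc45 and the GINS complex join the helicase. Polymerases tethered by the sliding clamp PCNA copy the strands, and chromatin is rebuilt on the new DNA. Transcription of many of these genes is raised at the start of S phase by E2F factors. In the lens the dividing cells lie in the anterior epithelium, and fibre cells have left the cell cycle.

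E2F-like letters were looked for in the promoters of these genes, because E2F factors are known regulators of many of them. RefSeq windows of the GRCm38.p6 build, 300 bases long with 250 before and 50 after the annotated start, were found for 31 of the 37 genes. Windows were searched on both strands for TTTCCCGC, TTTCGCGC, TTTGCCGC and TTTGGCGC. At least 1 of these was found for 11 of 31 genes (35.5%), against 2.60% of the 27025 genes in the table, which holds genes of every kind and was not matched for base composition. The CCAAT motif, also searched on both strands, was found for 58.1% of the genes, against 41.1% of the table. All 5 windows with 2 or more E2F-like matches are shown, 4 of them of helicase genes, together with the window of Pcna, which had no such match. They read from 5′ to 3′, capitals mark the E2F-like matches, and matches on opposite strands overlap in the windows of Mcm5 and Mcm6.
Mcm3 (chr1:20820263-20820562, minus strand): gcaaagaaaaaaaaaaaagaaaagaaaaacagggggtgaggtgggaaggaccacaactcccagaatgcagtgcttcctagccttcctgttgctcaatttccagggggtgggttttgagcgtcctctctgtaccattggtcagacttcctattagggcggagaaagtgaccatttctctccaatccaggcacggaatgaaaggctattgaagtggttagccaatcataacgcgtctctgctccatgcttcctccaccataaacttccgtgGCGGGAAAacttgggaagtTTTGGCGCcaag
Mcm5 (chr8:75109259-75109558, plus strand): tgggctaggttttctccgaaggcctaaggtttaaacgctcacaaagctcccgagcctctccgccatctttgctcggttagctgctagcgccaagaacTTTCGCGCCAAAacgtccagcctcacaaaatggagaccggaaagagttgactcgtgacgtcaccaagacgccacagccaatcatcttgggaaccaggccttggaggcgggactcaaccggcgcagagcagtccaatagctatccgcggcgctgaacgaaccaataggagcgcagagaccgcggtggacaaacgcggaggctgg
Mcm6 (chr1:128359656-128359955, minus strand): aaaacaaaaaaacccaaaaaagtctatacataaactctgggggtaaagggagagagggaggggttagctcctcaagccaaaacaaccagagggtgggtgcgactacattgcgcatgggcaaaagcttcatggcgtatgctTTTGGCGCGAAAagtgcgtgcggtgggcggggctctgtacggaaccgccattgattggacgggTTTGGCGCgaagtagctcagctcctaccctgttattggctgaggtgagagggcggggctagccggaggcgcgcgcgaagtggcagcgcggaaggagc
Mcm7 (chr5:138171834-138172133, minus strand): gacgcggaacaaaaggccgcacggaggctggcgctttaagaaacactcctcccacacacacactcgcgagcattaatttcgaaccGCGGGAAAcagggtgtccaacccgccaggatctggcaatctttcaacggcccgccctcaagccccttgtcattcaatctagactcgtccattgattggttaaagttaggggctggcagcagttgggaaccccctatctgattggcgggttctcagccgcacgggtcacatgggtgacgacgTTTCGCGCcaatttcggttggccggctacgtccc
Rfc3 (chr5:151651159-151651458, minus strand): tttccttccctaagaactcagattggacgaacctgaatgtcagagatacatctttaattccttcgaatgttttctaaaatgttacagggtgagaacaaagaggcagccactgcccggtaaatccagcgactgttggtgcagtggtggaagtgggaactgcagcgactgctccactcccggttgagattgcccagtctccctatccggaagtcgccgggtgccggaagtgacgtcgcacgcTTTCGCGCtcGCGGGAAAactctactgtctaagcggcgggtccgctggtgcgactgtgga
Pcna (chr2:132253131-132253430, minus strand): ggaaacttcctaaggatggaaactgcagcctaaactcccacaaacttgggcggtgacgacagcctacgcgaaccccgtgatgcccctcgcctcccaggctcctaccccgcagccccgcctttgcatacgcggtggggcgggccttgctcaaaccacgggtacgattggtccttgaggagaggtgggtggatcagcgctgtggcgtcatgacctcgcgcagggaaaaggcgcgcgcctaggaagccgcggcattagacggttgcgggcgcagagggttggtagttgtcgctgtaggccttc
These matches are letters in a window and show no binding. The 11 genes with a match had a median difference of 0.26 and the 20 without a match 0.17. Without wild-type replicate 1, an array described next, the medians were 0.24 and 0.21.

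The arrays were of lens by their markers. The crystallin Cryaa was measured at 13.63, 13.64 and 13.76 in mutants and at 13.67, 13.71 and 13.81 in wild types. Wild-type replicate 1 stood apart: across probe sets its Pearson correlation with each other array was 0.926 to 0.945, while the other 5 arrays correlated with each other at 0.974 to 0.985. Differences that it moved most are also given without it. On its brightest probe set the targeted gene Tfap2a was at 9.57, 9.64 and 9.83 in arrays labelled mutant and at 8.36, 9.26 and 9.56 in arrays labelled wild type, a difference of 0.62 ± 0.33 (SE, n = 3 per group; limma adjusted p = 0.999). Without wild-type replicate 1 that difference was 0.27. On its remaining probe sets the difference was 0.36 and 1.57, so none of the 3 had a lower mean in mutants. The labels do not place these probes inside or outside the deletion, so Tfap2a does not check the labels, and every direction below rests on the labels as deposited.

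None of the 37 replication genes passed the test. limma called 0 of them at an adjusted p under 0.05, and the background was 0 of 12393 genes, or 0%, with the lowest member adjusted p at 0.999. At an unadjusted p under 0.05 there were 0 members, against 2.13% of genes higher and 1.72% lower. All 3 mutant arrays lay above all 3 wild-type arrays for 1 member, Cdc45 (2.70% of members, against 4.22% of genes), and below them for 0 members, against 4.58% of genes. What the members had in common was the sign of small differences. The mean was higher in mutants for 32 of 37 (86.5%), against 47.8% of all genes. The median member difference was 0.24, against -0.01 for all genes, and the members ranged from -0.42 for Rpa3 to 1.12 for Uhrf1. The difference was more than 1 standard error above 0 for 12 members (32.4%), against 15.6% of genes, and more than 1 below 0 for 0 members, against 16.8% of genes. Members that vary together from array to array share such a sign, so these counts are not 37 separate observations.

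**Figure D1:**
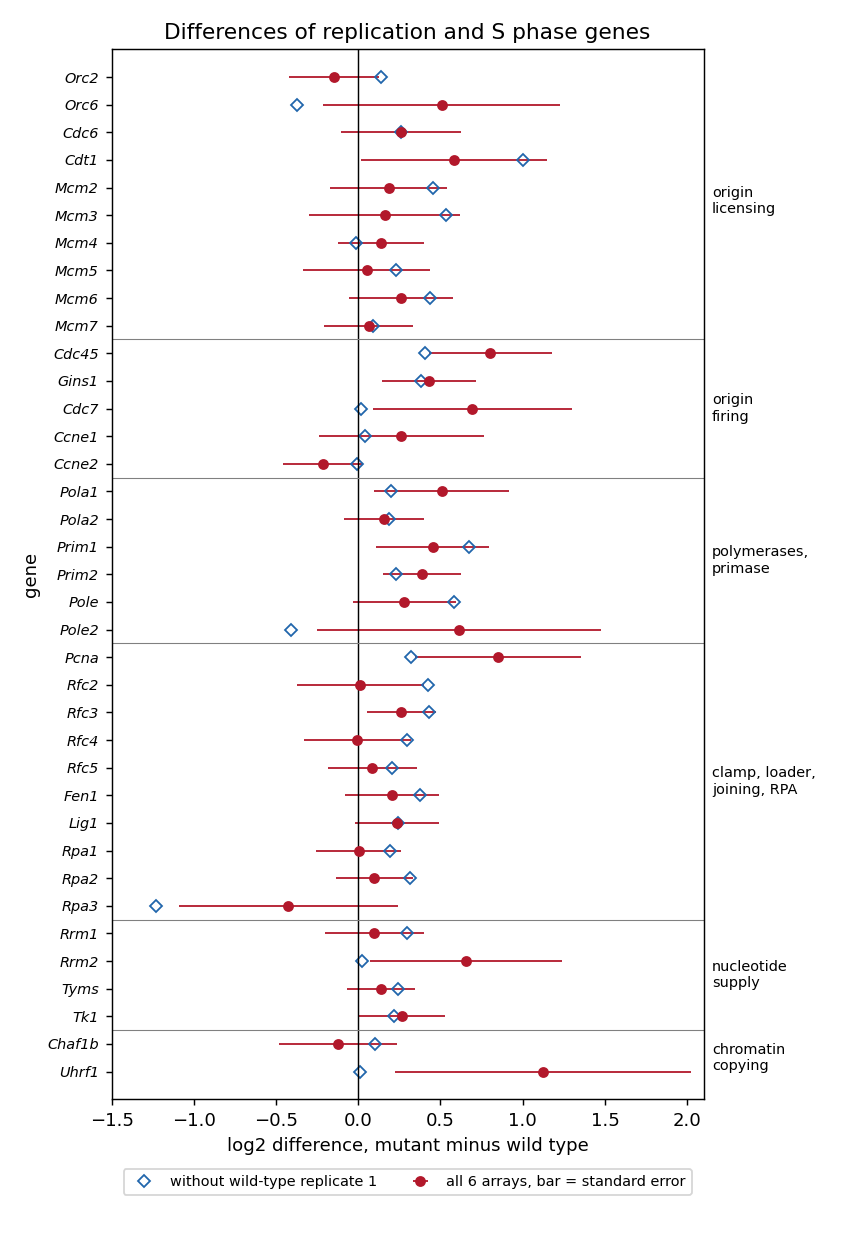
Log2 difference, mutant minus wild type, on the horizontal axis for each of the 37 genes, grouped by role. Filled circles use all 6 arrays with the standard error of the limma fit as a bar, and open diamonds leave out wild-type replicate 1. 32 filled circles lie above 0, and the diamonds of Uhrf1, Pole2, Orc6 and Rpa3 lie furthest left of their circles.

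On the probe set that stood for each gene, all 6 subunits of the helicase had a slightly higher mean in mutants. The differences were 0.18 for Mcm2, 0.16 for Mcm3, 0.14 for Mcm4, 0.05 for Mcm5, 0.26 for Mcm6 and 0.06 for Mcm7, each smaller than its standard error. Wild-type replicate 1 weighed on these values, and without it Mcm2 differed by 0.45 ± 0.33 (SE), Mcm3 by 0.54 ± 0.40 and Mcm6 by 0.44 ± 0.32, each more than its standard error. Mcm5 was then at a difference of 0.23, Mcm7 of 0.09 and Mcm4 of -0.02. With all 6 arrays, a second Mcm4 probe set had 0.44 ± 0.28 and a second Mcm2 probe set -0.03 ± 0.27. The other Mcm7 probe sets had -0.01 to 0.16. Mcm6 was at 8.88, 8.31 and 7.89 in mutants and at 8.45, 7.76 and 8.08 in wild types. Mutant replicate 1 was the highest and wild-type replicate 2 the lowest, and the groups overlapped. Cdt1, which brings the helicase to the origin, was at 7.27, 8.44 and 7.55 in mutants and at 8.01, 6.02 and 7.48 in wild types. Its difference was 0.58 ± 0.56 (SE, n = 3 per group; limma adjusted p = 0.999). Wild-type replicate 2 was the low array, and without that array the Cdt1 difference was 0.01. Without wild-type replicate 1 in its place the Cdt1 difference was 1.002. Its 3 probe sets had differences of 0.45 to 0.58.

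Of the other licensing genes, Cdc6, the loader that works with Cdt1, differed by 0.26 ± 0.37 (SE) and was dimmer than the median probe set. Orc2, a subunit of the origin recognition complex, had a mean difference of -0.15 ± 0.28, or 0.14 without wild-type replicate 1, and its other probe sets had -0.87 ± 0.95 and -0.01 ± 0.32. Orc6, the smallest subunit, was at 7.65, 8.01 and 7.34 in mutants and at 5.40, 8.03 and 8.05 in wild types. The mean difference of Orc6 was 0.51 with all arrays and -0.37 without wild-type replicate 1.

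Genes of origin firing included the member of lowest p. Cdc45, which joins the helicase to form its active state, was at 5.82, 5.45 and 5.37 in mutants and at 3.95, 4.95 and 5.34 in wild types. The gap between the lowest mutant and the highest wild type was smaller than the spread within either group, and Cdc45 was slightly dimmer than the median probe set. Its difference was 0.80 ± 0.38 (SE; limma adjusted p = 0.999), and 0.41 without wild-type replicate 1. Gins1, a subunit of the GINS complex, was at 7.94, 7.58 and 6.98 in mutants and at 6.97, 6.95 and 7.30 in wild types. Mutant replicates 1 and 2 lay above all wild types and mutant replicate 3 among them, with a difference of 0.43 ± 0.28, or 0.38 without wild-type replicate 1.

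Cdc7, the kinase that starts origin firing, was at 8.85, 8.96 and 7.98 in mutants and at 6.54, 8.66 and 8.50 in wild types. Its difference of 0.69 ± 0.61 (SE) became 0.02 without wild-type replicate 1, and a second, dim probe set had -0.27 ± 0.24. The cyclins that activate Cdk2 at the start of S phase had no common sign, with 0.26 ± 0.50 for Ccne1 and -0.21 ± 0.25 for Ccne2, or 0.04 and -0.01 without wild-type replicate 1. Ccne1 was at 6.07, 5.87 and 4.33 in mutants, where replicate 3 was the low array, and at 4.72, 5.12 and 5.65 in wild types.

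All 6 polymerase and primase genes had a higher mean in mutants, with a median difference of 0.42. Without wild-type replicate 1 the mean was higher for 5 of the 6, and the median was 0.21. Prim2, the large primase subunit, was at 7.55, 7.43 and 7.08 in mutants and at 6.66, 6.97 and 7.27 in wild types, a difference of 0.39 ± 0.24 (SE; limma adjusted p = 0.999), or 0.23 without wild-type replicate 1. Its second probe set had a difference of 0.57 ± 0.25, with mutants at 6.77, 6.73 and 6.85, all above the wild types at 5.75, 6.55 and 6.33. Prim1, the catalytic primase subunit that makes the RNA primer, was at 9.05, 9.71 and 8.69 in mutants and at 9.14, 8.27 and 8.67 in wild types. Its difference was 0.45 on both probe sets, with a standard error of 0.34 on the brighter one, where it was 0.68 without wild-type replicate 1. On the brighter probe set of each primase gene the groups overlapped. Pola1, the catalytic subunit of polymerase alpha, differed by 0.51 ± 0.41, or 0.20 without wild-type replicate 1, and its partner Pola2, which was dim, by 0.16 ± 0.24.

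The leading-strand polymerase showed how much 1 array carried. Pole, its catalytic subunit, differed by 0.28 ± 0.31 (SE), and by 0.58 without wild-type replicate 1. Pole2, its accessory subunit, was at 6.13, 5.93 and 4.93 in mutants and at 3.01, 6.04 and 6.10 in wild types. The Pole2 difference was 0.61 ± 0.86, and -0.41 without wild-type replicate 1. In wild-type replicate 1 Pole was thus the highest of the 6 arrays and Pole2 the lowest.

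Pcna, the sliding clamp and a common marker of cells in S phase, was at 10.28, 11.05 and 10.05 in mutants and at 8.55, 10.17 and 10.11 in wild types. Mutants averaged 10.46 ± 0.52 and wild types 9.61 ± 0.92 (SD, n = 3 each), a difference of 0.85 ± 0.50 (SE; limma adjusted p = 0.999), which was 0.32 without wild-type replicate 1. Mutant replicate 2 was the highest array, and mutant replicate 3 lay below wild-type replicates 2 and 3. Rfc3, a subunit of the clamp loader, was at 6.28, 6.47 and 6.34 in mutants and at 6.44, 5.90 and 5.97 in wild types, a difference of 0.26 ± 0.21. The groups overlapped through wild-type replicate 1 alone, and without it the difference was 0.43. The other loader subunits differed by 0.01 for Rfc2, -0.00 for Rfc4 and 0.09 for Rfc5, and without wild-type replicate 1 by 0.42 ± 0.24 (SE), 0.30 ± 0.25 and 0.21 ± 0.28.

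Of the enzymes that finish the lagging strand, the flap nuclease Fen1 differed by 0.21 ± 0.29 (SE), or 0.37 without wild-type replicate 1, and the DNA ligase Lig1 by 0.24 ± 0.26. Of the subunits of the single-strand binding protein RPA, Rpa1 differed by 0.00 ± 0.26 and Rpa2 by 0.10 ± 0.23, and without wild-type replicate 1 by 0.19 ± 0.24 and 0.31 ± 0.18. With all arrays, a second Rpa1 probe set had a difference of -0.34 ± 0.21, and there each mutant array lay below each wild-type array. The second Rpa2 probe set had 0.51 ± 0.38, and its groups overlapped. Rpa3, the smallest, was at 6.58, 6.64 and 6.33 in mutants and at 5.33, 8.01 and 7.49 in wild types. Its difference of -0.42 ± 0.67 was the lowest of the 37, and it was -1.23 without wild-type replicate 1 (limma adjusted p = 0.677 in that fit). Without that array both wild types lay above all mutants.

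Enzymes that supply nucleotides had higher means in mutants for all 4 genes. Rrm2, the S phase subunit of ribonucleotide reductase, was at 11.48, 11.50 and 10.62 in mutants and at 9.28, 10.87 and 11.48 in wild types. The difference of 0.65 ± 0.58 (SE) was 0.02 without wild-type replicate 1, and the other Rrm2 probe sets had 0.19 and -0.05. Its partner Rrm1, present through the cycle, differed by 0.10 ± 0.30, or 0.29 without that array. Tk1, the thymidine kinase of dividing cells, was at 8.02, 8.52 and 7.64 in mutants and at 7.70, 7.72 and 7.97 in wild types, a difference of 0.26 ± 0.26, with mutants on both sides of the wild types. Thymidylate synthase, Tyms, had only dim probe sets, and its brightest differed by 0.14 ± 0.21, or 0.24 without wild-type replicate 1.

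Of the genes that copy chromatin, Uhrf1 had the largest difference of the 37. Uhrf1, which recognises hemimethylated DNA behind the fork and recruits the maintenance methyltransferase Dnmt1, was at 10.53, 10.22 and 9.78 in mutants and at 6.83, 10.14 and 10.18 in wild types. The difference was 1.12 ± 0.90 (SE; limma adjusted p = 0.999), and it was 0.01 without wild-type replicate 1. With all arrays, a second, dim Uhrf1 probe set had a difference of 0.07 ± 0.33. Chaf1b, the middle subunit of the assembly factor that places histones on new DNA, was at 5.49, 5.63 and 5.27 in mutants and at 6.03, 4.79 and 5.94 in wild types, a difference of -0.12 ± 0.36, or 0.10 without wild-type replicate 1.

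**Figure D2:**
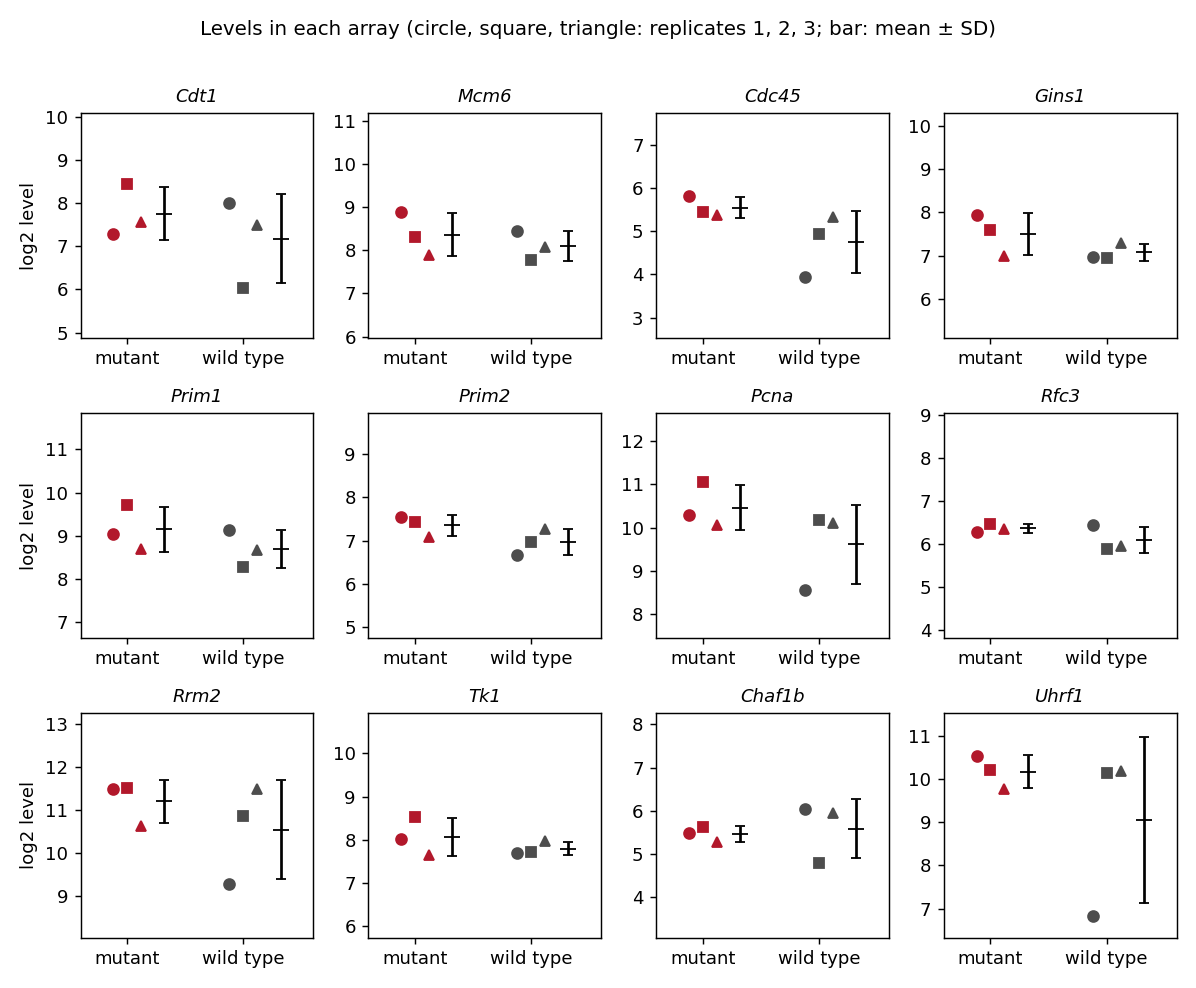
Log2 level, vertical axis, of 12 genes in each mutant and wild-type array, with mean ± SD (n = 3) beside the points; every panel spans the same range in log2. The mutant and wild-type points overlap in every panel but that of Cdc45, and wild-type replicate 1 (grey circle) is far below the rest for Uhrf1, Rrm2, Pcna and Cdc45.

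The replication genes also differed together between arrays of the same group. Among mutants, replicate 3 had the lowest value for 30 of 37 genes (81.1%), against 30.9% of all genes. Relative to the mean of mutant replicates 1 and 2, mutant replicate 3 was lower for 35 of 37 genes (94.6%), against 47.2% of all genes. The median log2 gap was -0.51, against 0.02 for all genes. Among wild types, replicate 2 was below replicate 3 for 27 of 37 genes (73.0%), against 54.6% of all genes. The median gap there was -0.35, against -0.05 for all genes. The mean of the 37 genes was 7.72, 7.78 and 7.21 in mutants and 7.17, 7.21 and 7.52 in wild types, so the lowest mutant array was level with the lower wild types and below wild-type replicate 3. Without mutant replicate 3 the median difference was 0.45 with 33 of 37 genes higher, without mutant replicate 2 it was 0.10 with 26 higher, and without wild-type replicate 2 it was 0.11 with 25 higher.

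The 3 wild-type arrays were uneven in another way. In wild-type replicate 1 the genes split. Against the mean of the other wild types 22 of 37 were higher and 15 lower, with a median of 0.31, against 0.09 for all genes. The wider gaps ran the other way, with 8 lying more than 1 below the mean of the other wild types on the log2 scale and 3 more than 1 above it. The low ones were Uhrf1 (-3.34), Pole2 (-3.06), Orc6 (-2.64), Rpa3 (-2.42), Cdc7 (-2.04), Rrm2 (-1.90), Pcna (-1.59) and Cdc45 (-1.20), and the high ones Cdt1 (1.26), Rfc2 (1.23) and Mcm3 (1.13). These were 21.6% and 8.11% of the members, against 13.2% and 10.6% of all genes. Subunits of 1 complex were on both sides, as Rpa3 was below and Rpa1 (0.57) and Rpa2 (0.65) were above the other wild types. For 8 of the 20 genes with several probe sets, the probe sets of the same gene lay on both sides too, among them Rpa2 at 0.65 and -0.42. Leaving the array out changed the sign of 6 members, Orc2, Orc6, Mcm4, Pole2, Rfc4 and Chaf1b, and still left 32 of 37 higher (86.5%), against 50.6% of genes, with a median of 0.23.

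**Figure D3:**
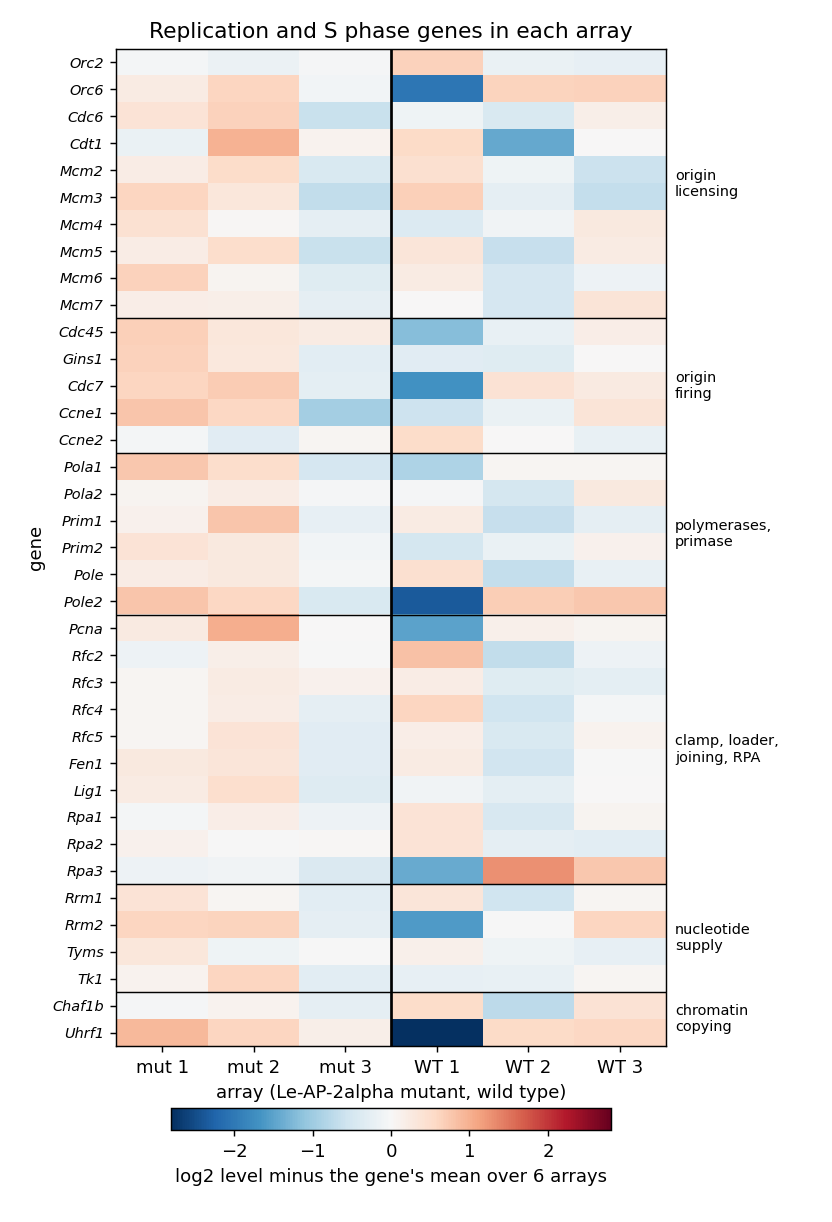
Colour gives the log2 level of each gene (rows, grouped by role) in each array (columns, mutant left of wild type) minus that gene's mean over the 6 arrays. Mutant replicate 3 is pale blue for most genes, wild-type replicate 2 likewise, and wild-type replicate 1 holds both the darkest blue cells, led by Uhrf1, and red ones.

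Probe sets of one gene mostly had the same sign of difference. Of the 20 genes with more than 1 probe set, 11 had a higher mean in mutants on every probe set, 1 (Orc2) a lower mean on every one, and the other 8 were mixed. Mcm3 had 5 probe sets, with differences of 0.08 to 0.25. Probe sets of 1 gene report the same samples and are not replicates.

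A second list held other genes of the same process, and 37 of its 44 were measured, of which 29 (78.4%) had a higher mean in mutants, with a median of 0.29. limma called 0 of them at an adjusted p under 0.05, and 4 of 37 had an unadjusted p under 0.05, all higher, against 2.13% of all genes higher at that p. Pold3, an accessory subunit of the lagging-strand polymerase, was at 8.13, 7.97 and 7.61 in mutants and at 6.98, 7.36 and 7.35 in wild types, a difference of 0.68 ± 0.22 (SE; limma adjusted p = 0.999). A second Pold3 probe set overlapped between groups, with a difference of 0.36 ± 0.34. Asf1b, a histone chaperone that hands histones to the assembly factor, was at 8.79, 9.30 and 8.90 in mutants and at 8.69, 8.20 and 8.19 in wild types. E2f1, a transcription factor that activates S phase genes, was at 7.88, 8.14 and 7.43 in mutants and at 7.38, 7.09 and 7.23 in wild types. Its difference was 0.58 ± 0.24 (limma adjusted p = 0.999), with -0.02 ± 0.20 on a second, dim probe set. On the brightest probe set of these 3 genes, of 37 in the list, each mutant array lay above each wild-type array, against 4.22% of all genes, and the differences without wild-type replicate 1 were 0.55, 0.80 and 0.66.

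Ccna2, the cyclin of S phase and early mitosis, was at 10.03, 9.96 and 9.46 in mutants and at 8.14, 9.05 and 9.50 in wild types, a difference of 0.92 ± 0.38 (SE), or 0.54 without wild-type replicate 1. Dnmt1, the methyltransferase that copies DNA methylation, differed by 0.21 ± 0.31. Without wild-type replicate 1 only 19 of the 37 genes in this second list had a higher mean, 51.4%, with a median of 0.00, which is near the share of all genes. E2F-like matches were found for 12 of its 32 genes with a window (37.5%).

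Lists of other processes shared part of this order of arrays. Of 17 measured genes of mitosis, a list that shares Ccna2 and Top2a with the second replication list, 15 had a higher mean in mutants, with a median of 0.53, and mutant replicate 3 was the lowest mutant for 14. Without wild-type replicate 1 the mitosis median was 0.28, with 14 of 17 higher. The mitosis list mean was 7.89, 7.76 and 7.24 in mutants and 6.67, 7.00 and 7.61 in wild types. Neural retina markers, from cells that lie behind the lens and still divide at birth, were higher for 7 of 8 measured genes, or 6 without wild-type replicate 1. Their list mean was 7.75, 7.85 and 7.26 in mutants and 6.77, 6.92 and 7.80 in wild types, with 1 of 8 dim. On list means, mutant replicate 3 was the lowest mutant and wild-type replicate 3 the highest wild type for the replication, mitosis and retina lists. On the median over genes of the level minus the gene's mean, wild-type replicate 1 was at 0.14 for the 37 replication genes, above wild-type replicate 3 at 0.06. In wild-type replicate 1 that median was -0.44 for the second replication list, -0.63 for mitosis and -0.53 for retina. The list mean of the 37 genes, by contrast, was lowest of the 6 arrays in wild-type replicate 1, at 7.17. Macrophage markers were higher for 7 of 8 genes, with list means of 5.35, 6.88 and 5.31 in mutants and 5.39, 5.15 and 5.10 in wild types, and 4 of 8 dim. Stroma markers were higher for 7 of 8, at 4.77 to 5.95 in mutants and 4.41 to 4.66 in wild types, with 3 of 8 dim. Pigment cell markers were higher for 4 of 4, at 6.82 to 7.23 in mutants and 5.93 to 6.80 in wild types, with 1 of 4 dim. The macrophage mean was high in mutant replicate 2 alone, and the pigment mean was lowest in wild-type replicate 3. Endothelium markers were higher for 2 of 5, at 6.29 to 6.65 in mutants and 6.28 to 7.04 in wild types, with 2 of 5 dim. All 3 measured erythroid markers were dim, at 2.92 to 4.31 in mutants and 2.73 to 4.45 in wild types, with 1 of 3 higher.

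Lens epithelium markers, from the layer that holds the dividing lens cells, were higher for 3 of 7, or 0 without wild-type replicate 1, with list means of 8.12 to 8.18 in mutants and 8.40 to 8.71 in wild types. Lens fibre markers were higher for 1 of 6, or 0 without that array, at 12.37 to 12.51 in mutants and 12.64 to 12.70 in wild types. With all arrays the fibre median difference was only -0.04. Bfsp1 differed by -0.65 and Gja3 by -0.72, and Cryaa, Cryba1, Crygs and Mip by -0.05 to 0.03. No marker was at 0 on any array, and the lowest single value among these lists was 2.50, of the erythroid marker Hba-a1. The difference between 3′ and 5′ control probe sets is a measure of RNA quality and labelling. Averaged over Actb, Gapdh, Tfrc and Pcx, it was 1.64, 1.66 and 1.28 in mutants and 1.56, 1.53 and 1.38 in wild types. That average was lowest in mutant replicate 3, but the controls did not share this order. Pcx was lowest there (0.45), Actb (1.24) and Gapdh (0.73) in wild-type replicate 2, and Tfrc (1.69) in wild-type replicate 3. With the average as a covariate the median difference of the replication genes was 0.16, with 29 of 37 higher. The part that other cells or RNA quality play in the values of the replication genes was not tested, and more dividing cells and more RNA per cell cannot be told apart in whole lenses.

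**Figure D4:**
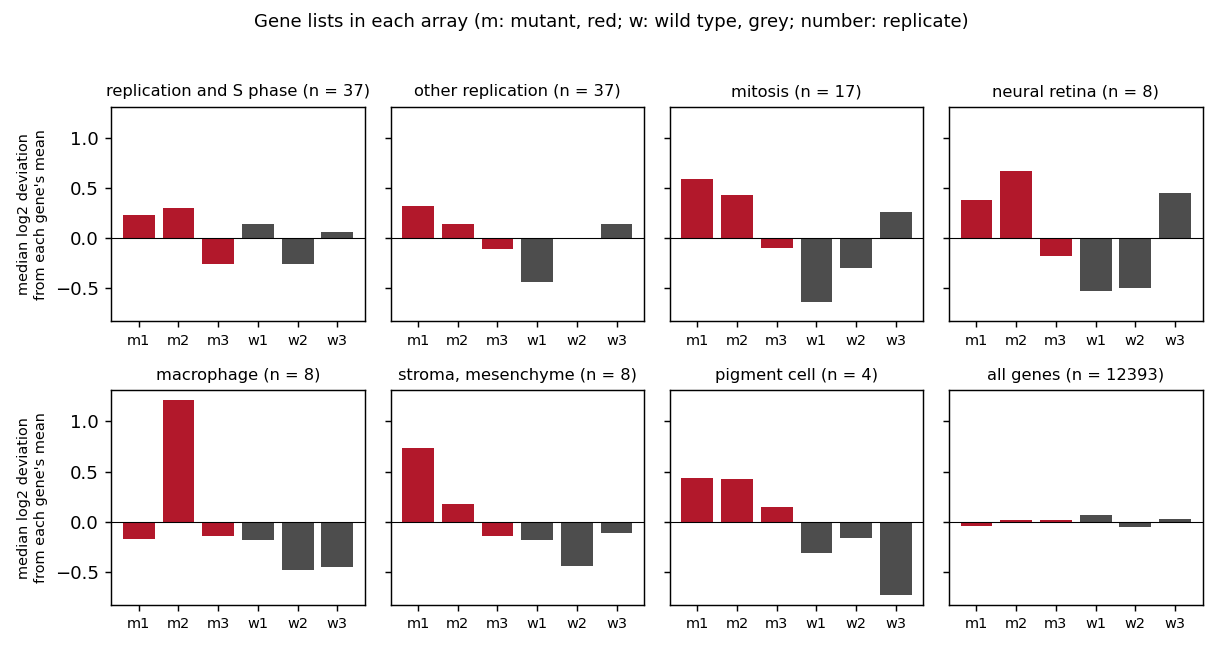
Bars give, for each array (mutants m1 to m3 in red, wild types w1 to w3 in grey), the median over a list's genes of the log2 level minus that gene's mean over the 6 arrays. Replication, mitosis and neural retina lists all have mutants m1 and m2 above mutant m3, wild type w1 is above 0 for the replication and S phase list and below 0 for the other replication, mitosis and neural retina lists, and all genes together stay within 0.07 of 0.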

How the data were processed

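RNA was extracted with a Qiagen kit, amplified (Nugen Ovation) and biotin-labelled, per the labels' protocols. The deposited values are intensity values on a linear scale. RMA (background correction, quantile normalisation, probe set summary) is named per the submitters' processing notes, without version or settings; the sources used here do not say how its output came to be linear. RMA can compress differences of dim probe sets, meaning here those below the median level of 5.26 (log2).

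Log2 was taken with no pseudocount. Of 22626 probe sets without the 64 controls, 20380 had 1 symbol in the platform annotation, 691 several and 1555 none. Mutant and wild type were compared with limma 3.58.1 in R 4.3.3 (lmFit, eBayes, no covariate, 6 arrays, two-sided, Benjamini-Hochberg over the 22626, threshold 0.05). On data simulated over 22626 probe sets for this comparison, with independent noise, the fit recovered 8% of log2 changes of 1, 58% of 2, 96% of 3 and 100% of 4. Values in every array are given for Pcna, the 2 genes of lowest p in each role, the second list's genes at an unadjusted p under 0.05, and Orc6, Cdc7, Ccne1, Pole2, Rpa3 and Cryaa, chosen after their values were seen. Dnmt1 was fixed in the rule. Members, lists and alternatives were chosen with earlier results of these data known. At most 0.185% of values were equal between 2 arrays. No batch or scan date is labelled.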

Additional observations from a re-analysis of the deposited data

How the results depend on the processing

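No replication gene was called in any of 16 alternatives, with a lowest adjusted p of 0.276 (Rpa3, with arrays weighted), and none whose difference exceeded its standard error turned to the opposite sign beyond it. Array weights called 7 probe sets and 5 genes, against 0 and 0, none of them among the 37; the weights were 5.65 for wild-type replicate 3 and 0.224 for wild-type replicate 1. The other alternatives called 0, and probe sets were not counted where a gene's probe sets were averaged; 742 probe sets and 477 genes had an unadjusted p under 0.05. The median of the 37 genes, 0.24, ranged from 0.10 to 0.45 when single arrays were left out, with 25 to 33 genes higher. It was 0.13 without mutant replicate 1 (26 higher), 0.12 with array weights (25 higher), 0.10 without both mutant replicate 2 and wild-type replicate 1 (28 higher) and 0.18 with median centring (29 higher, against 40.4% of all genes). Of the 37 genes, 18 kept their sign whichever array was left out, 17 higher and 1 (Ccne2) lower. Replicate numbers were not found to pair the samples: deviations of same-numbered arrays from their group means correlated at -0.07, -0.26 and -0.16. With the replicate block limma called 0 probe sets, 0 genes and 0 members, and the median was 0.24 with 32 higher. Low signal limits Cdc45, Cdc6, Pola2 and Tyms, which were dim and have no value with dim probe sets left out.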
